A study of Mus musculus with 12 samples.

Results

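The 3 NKX2-1 libraries of this series were compared with each other. Their deposited lists held 188041 peaks on chromosomes 1 to 19, of 487413 peaks in the 9 lists analysed. The assay, CUT&RUN, uses a nuclease tethered to an antibody to cut out the chromatin around the protein that the antibody recognises. The material was lung epithelium from wild-type C57Bl6 fetuses at E17.5, pooled between animals and enriched by magnetic beads against EpCAM, a surface protein of epithelial cells. Each reaction used 100000 cells, and the NKX2-1 antibody was raised in rabbit. All groups shared that genotype, age and cell source. The other targets used here were H3K4me3 (3 libraries), PRDM16 (2) and PRDM3 (1). The 3 IgG samples were not analysed here. Nothing in the labels says that replicates came from separate pools, so the spread between libraries may be technical.

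NKX2-1 is a homeodomain protein that sets up lung and thyroid identity and stays on in alveolar epithelium. There it is known to act on the genes of alveolar type 1 (AT1) cells, the flat cells of gas exchange, and of alveolar type 2 (AT2) cells, which make surfactant. Homeodomains of its class bind DNA around the core CAAGTG. H3K4me3 is a histone mark of active promoters. PRDM16 and PRDM3 are related zinc-finger proteins that the study also mapped.

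Each peak was classed by how many NKX2-1 libraries it was found in, counting its own. Another library held the peak when one of its peaks overlapped it by at least 1 base. Peaks found in all 3 are called shared, and peaks found in no other library are called single. No other target was used to set the classes. Shared peaks lay mostly at promoters, so promoter sequence is shown first. The 6 windows below are the 250 bases before a RefSeq start (GRCm38.p6, the assembly of mm10), each overlapped by peaks of all 3 libraries. They belong to a pair of the genes with the highest ranked shared peaks genome-wide, Zfp97 (chr17:17121133-17121382) and Tom1 (chr8:75033436-75033685), and to 4 epithelial genes. These are Scnn1g (chr7:121734229-121734478), Cxcl15 (chr5:90794284-90794533), Cldn7 (chr11:69965171-69965420) and Sftpb (chr6:72304360-72304609). All lie on the plus strand. Capitals mark matches to CAAGTG or to the looser CACTNNAG, on either strand. The Sftpb window holds neither. The 6 windows are chosen examples and are not typical in this respect. Of all windows with peaks of all 3 libraries, 11.1% held CACTNNAG and 7.88% held CAAGTG, so most held neither. Windows of Zranb3, Ing5, Polr3g and Leng8, also among the highest ranked genes, held neither.
Zfp97: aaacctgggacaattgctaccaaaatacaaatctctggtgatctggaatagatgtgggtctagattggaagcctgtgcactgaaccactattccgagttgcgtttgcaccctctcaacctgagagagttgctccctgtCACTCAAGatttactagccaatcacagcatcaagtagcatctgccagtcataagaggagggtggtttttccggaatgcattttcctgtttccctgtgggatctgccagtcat
Tom1: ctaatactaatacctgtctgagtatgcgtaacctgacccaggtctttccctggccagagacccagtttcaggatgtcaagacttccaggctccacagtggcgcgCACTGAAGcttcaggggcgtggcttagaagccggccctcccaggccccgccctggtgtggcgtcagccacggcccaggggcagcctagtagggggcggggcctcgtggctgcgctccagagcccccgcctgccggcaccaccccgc
Scnn1g: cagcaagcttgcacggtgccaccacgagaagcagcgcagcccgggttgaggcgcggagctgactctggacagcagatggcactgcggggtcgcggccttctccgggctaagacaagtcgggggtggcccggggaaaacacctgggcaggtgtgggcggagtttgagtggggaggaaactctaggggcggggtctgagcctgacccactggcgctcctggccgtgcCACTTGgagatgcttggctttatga
Cxcl15: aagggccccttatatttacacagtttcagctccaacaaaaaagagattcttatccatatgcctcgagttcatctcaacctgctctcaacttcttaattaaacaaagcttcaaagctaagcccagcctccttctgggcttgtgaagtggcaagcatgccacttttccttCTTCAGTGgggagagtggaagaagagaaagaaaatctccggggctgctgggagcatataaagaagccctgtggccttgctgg
Cldn7: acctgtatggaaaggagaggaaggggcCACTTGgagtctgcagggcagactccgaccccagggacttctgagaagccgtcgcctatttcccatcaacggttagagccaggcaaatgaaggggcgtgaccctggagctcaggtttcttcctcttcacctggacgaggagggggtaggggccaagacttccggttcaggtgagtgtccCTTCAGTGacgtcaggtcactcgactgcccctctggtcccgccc
Sftpb: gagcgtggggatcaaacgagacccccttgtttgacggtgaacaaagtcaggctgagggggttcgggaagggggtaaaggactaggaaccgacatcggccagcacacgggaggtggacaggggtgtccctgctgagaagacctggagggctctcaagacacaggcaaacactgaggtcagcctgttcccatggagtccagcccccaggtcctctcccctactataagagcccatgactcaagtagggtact

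The libraries were unequal before any comparison. On chromosomes 1 to 19 replicate 1 held 51586 peaks, replicate 2 held 60419 and replicate 3 held 76036. Replicate 1 had the shortest list but the strongest peaks. Its median fold enrichment, the authors' ratio of peak signal to background, was 4.03, against 2.44 and 2.40. A q under 0.05 was reached by 76.4%, 11.0% and 13.2% of the peaks. Its peaks were also wider, with a median of 479 bases against 297 and 299. In replicate 2, 38.7% of peaks had 1 and the same fold value (2.44), and in replicate 3, 37.7% did (2.40). Ranks within those lists are therefore heavily tied. Peak names carried the letter C in replicate 1, as in every PRDM list, and H in replicates 2 and 3. Replicate and letter series cannot be told apart, and 1 library against the others allows no test. Read depth is unknown from peak lists. As a check of the cell source, H3K4me3 lay within 1 kb of an end of all 5 epithelial markers (Epcam, Cdh1, Krt8, Krt18 and Nkx2-1) in 3 of 3 libraries. It did so in 3 of 3 libraries for 1 of 4 mesenchymal markers (Col1a2), 1 of 3 endothelial markers (Kdr) and 2 of 4 immune and blood markers (Spi1 and Klf1). Col1a1 had it in 2 libraries, Tbx4 and Cdh5 in 1, and Ptprc, Cd68, Pecam1 and Pdgfra in none.

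Few NKX2-1 peaks were found in every library. Shared peaks made up 16.0% of replicate 1 (8248 peaks), 13.6% of replicate 2 (8210) and 10.6% of replicate 3 (8096), which is 13.4% ± 2.68 (SD, n = 3). When both of 2 libraries sufficed, the mean was 14.3% without replicate 1, 24.8% without replicate 2 and 23.3% without replicate 3. Single peaks made up 64.0%, 74.8% and 76.7%, and peaks found in exactly 2 libraries 20.0%, 11.6% and 12.6%. H3K4me3 from the same cells gave 72.5%, 88.6% and 95.9% of peaks in all 3 of its libraries. The groups did not overlap. NKX2-1 was lower by 72.3 percentage points (exact two-sided permutation p = 0.1, the smallest that 3 against 3 libraries allow). H3K4me3 lists were called at another threshold, so the figures compare deposited lists, not the proteins.

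Pairs that included replicate 1 met more often than replicates 2 and 3 met each other. In replicate 1, 4060 peaks were found also in replicate 2 alone and 6273 also in replicate 3 alone. In replicate 2, 5533 peaks were shared with replicate 1 alone but 1499 with replicate 3 alone. In replicate 3 the corresponding counts were 8171 with replicate 1 and 1416 with replicate 2. Of all its peaks, replicate 1 had 36.0% in another library, replicate 2 had 25.2% and replicate 3 had 23.3%. The order turned over when weak peaks were left out. At q under 0.05, 21.8% of replicate 1, 75.5% of replicate 2 and 70.8% of replicate 3 was found in another library. Replicates 2 and 3 then held 6633 and 10013 peaks, against 39393 in replicate 1, so list length moved with the result. Limited to its 20000 strongest peaks, each library had a more even share in the others, 47.0%, 39.5% and 43.4%, and the shared class was 21.6% ± 0.151 (SD, n = 3).

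Most of the 500 strongest peaks of each library were shared. Among the 500 peaks with the highest fold enrichment, 91.8% of replicate 1, 96.6% of replicate 2 and 92.4% of replicate 3 were found in all 3 libraries (93.6% ± 2.62, SD, n = 3). Among the top 2000 the mean was 83.0% ± 2.92 (SD, n = 3), among the top 5000 it was 67.1% ± 1.60 and among the top 20000 it was 31.6% ± 2.36. At each of the 6 list lengths examined, the lowest and highest library were 3.14 to 7 percentage points apart, although their fold values differed in scale. The 500th peak had a fold of 14.9 in replicate 1, 6.51 in replicate 2 and 7.19 in replicate 3.

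**Figure D1:**
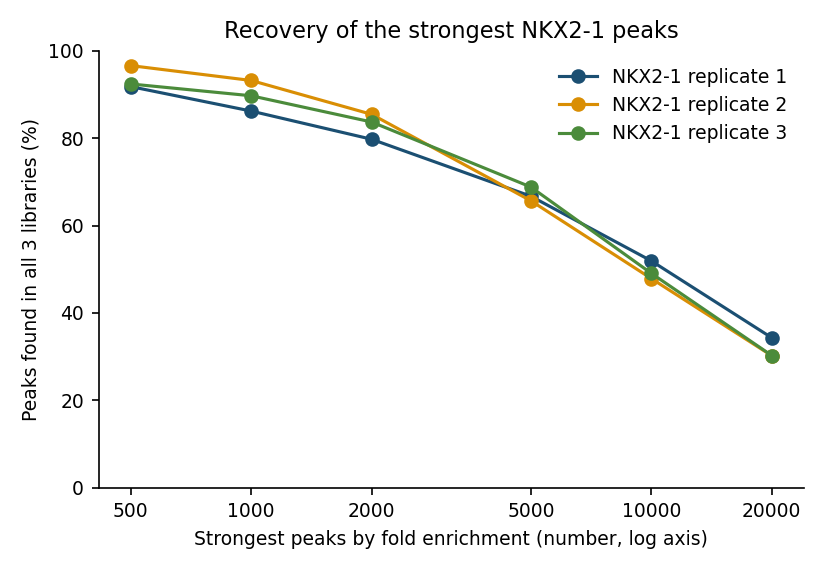
Share of the strongest NKX2-1 peaks of each library (y axis, percent) that was found in all 3 libraries, for list lengths from 500 to 20000 peaks (x axis, log scale); each line is 1 library. The share was 91.8% to 96.6% at 500 peaks and 30.2% to 34.3% at 20000 peaks, and the 3 lines run close together.

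The same contrast appeared in the ranks. A within-library percentile rank of fold enrichment was used, in which 100 is the strongest peak. Shared peaks had a median rank of 86.9, 88.1 and 90.4 in replicates 1, 2 and 3, and single peaks 36.8, 39.1 and 36.2. The difference was 51.1 ± 2.73 points (SD, n = 3), higher in 3 of 3 libraries (exact two-sided sign-flip permutation p = 0.25, the smallest that 3 libraries allow, and 0.25 after Benjamini-Hochberg adjustment over 5 tests). Shared peaks were also wider, with medians of 1316.5, 487 and 592 bases against 377, 280 and 281 for single peaks. Width enters an overlap rule by its construction. Using 200-base windows at the summits instead, the shared class was 4.52% ± 0.896 (SD, n = 3) and the rank difference was 52.3 ± 5.01 points (SD, n = 3).

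In the full lists, most shared NKX2-1 peaks lay at gene ends and most single peaks did not. The share of shared peaks with a midpoint within 1 kb of the nearest end of a RefSeq protein-coding gene was 61.9%, 62.5% and 62.3% in replicates 1, 2 and 3 (62.2% ± 0.311, SD, n = 3). Of single peaks it was 11.4%, 3.54% and 3.62%. The difference was 56.0 ± 4.78 percentage points (SD, n = 3; exact two-sided sign-flip permutation p = 0.25). Shared peaks of the 3 libraries overlap each other by the class rule, so their 3 values are not independent and their SD is not a measure of replication. The median distance was 450, 477 and 491.5 bases for shared peaks, and 14296, 39898 and 41834 bases for single peaks. Single peaks of replicate 1 thus lay closer to genes than those of the other libraries. On the log10 scale of distance the classes differed by −1.78 ± 0.245 (SD, n = 3; exact two-sided sign-flip permutation p = 0.25). Among peaks whose −log10 q reached 5, the difference at 1 kb was 24.7 points (32.5, 15.0 and 26.7 in replicates 1, 2 and 3) and that in log10 distance was −0.49 (−0.84, −0.10 and −0.54). Inside a gene body lay 68.4%, 70.5% and 71.6% of shared peaks and 55.7%, 43.5% and 43.4% of single peaks. Peaks found in exactly 2 libraries fell between the other classes, with 29.8%, 28.1% and 34.0% within 1 kb of a gene end.

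**Figure D2:**
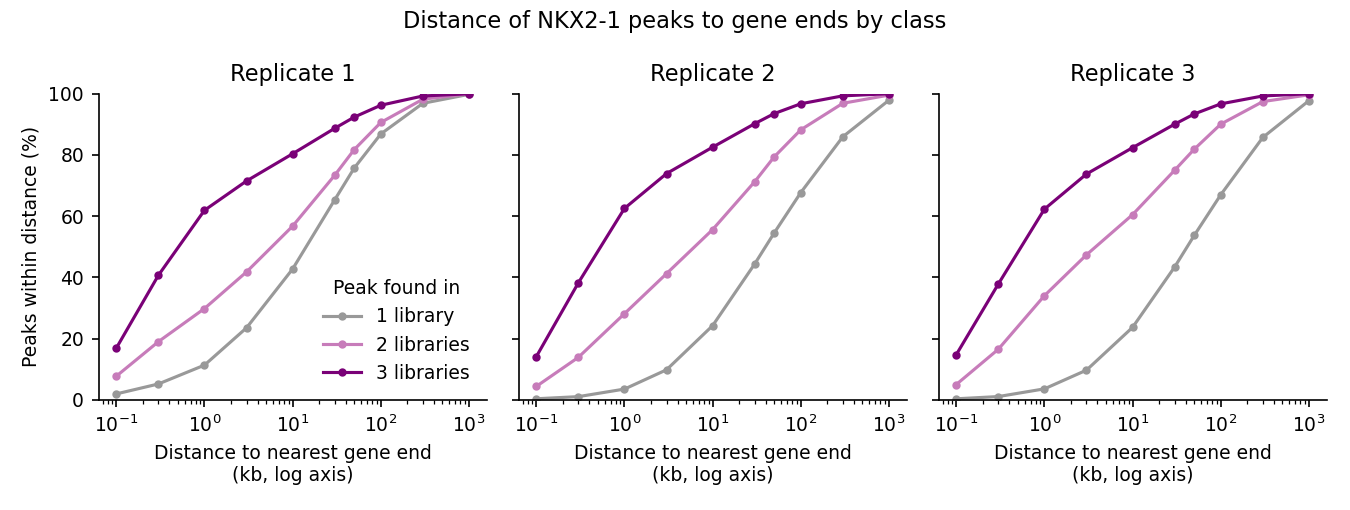
Cumulative share of NKX2-1 peaks (y axis, percent) by distance of the midpoint to the nearest end of a protein-coding gene (x axis, kb, log scale), 1 panel for each library and 1 line for each class. At 1 kb the lines of shared peaks stand at 61.9% to 62.5% and those of single peaks at 3.54% to 11.4%.

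H3K4me3 followed the classes closely. Of shared peaks 86.2%, 87.4% and 87.4% overlapped an H3K4me3 peak of any library, and of single peaks 17.9%, 2.15% and 2.81%. The difference was 79.4 ± 9.63 percentage points (SD, n = 3), with the same sign in 3 of 3 libraries (exact two-sided sign-flip permutation p = 0.25). At a −log10 q of 5 or more it was 21.9 points (27.5, 19.7 and 18.5 in replicates 1, 2 and 3). The values of shared peaks are again not independent between libraries. The difference in position was found over the mark and had no common sign outside it. Over H3K4me3 it was 32.2 ± 2.08 percentage points (SD, n = 3) within 1 kb of a gene end. Outside H3K4me3 the share within 1 kb of a gene end was 1.93%, 3.38% and 3.15% for shared peaks and 5.24%, 2.82% and 2.55% for single peaks. The mean difference was −0.717 percentage points, below 0 in replicate 1 (−3.32) and above 0 in replicates 2 and 3 (0.569 and 0.597; exact two-sided sign-flip permutation p = 1). The rank difference stayed, at 40.1 ± 2.58 points (SD, n = 3) outside the mark and 34.9 ± 7.25 (SD, n = 3) over it.

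Single peaks met PRDM16 and PRDM3 more often in replicate 1 than in the other libraries. Single peaks of replicate 1 overlapped a peak of PRDM16 replicate 1 in 50.2%, of PRDM16 replicate 2 in 40.2% and of PRDM3 in 24.3% of cases. For single peaks of NKX2-1 replicate 2 the values were 5.28%, 4.13% and 2.08%, and for those of replicate 3 they were 5.54%, 4.29% and 2.05%. Peaks that replicates 2 and 3 had in common but replicate 1 lacked overlapped PRDM16 replicate 1 in 27.6% (replicate 2 peaks) and 26.1% (replicate 3 peaks). Peaks that replicate 1 had in common with 1 other library did so in 82.0% (with replicate 2) and 83.0% (with replicate 3). Shared peaks reached 94.7% to 96.6% for PRDM16 replicate 1, 87.1% to 92.0% for PRDM16 replicate 2 and 81.1% to 87.5% for PRDM3. All PRDM lists carry the letter of NKX2-1 replicate 1, so target and letter series cannot be told apart in the values of single peaks. The width and strength of replicate 1 peaks move with them too, and their part was not tested.

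**Figure D3:**
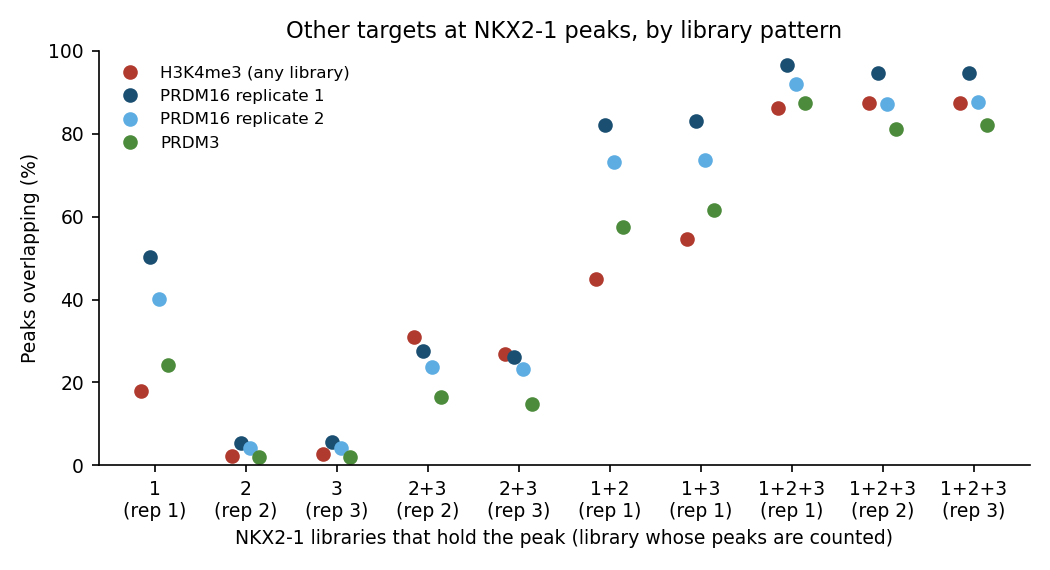
Share of NKX2-1 peaks (y axis, percent) that overlap a peak of H3K4me3, PRDM16 or PRDM3, by the NKX2-1 libraries that hold the peak (x axis, with the library whose peaks were counted in brackets); each point is 1 set of peaks against 1 target. Single peaks of replicates 2 and 3 lie at 2.05% to 5.54%, single peaks of replicate 1 at 17.9% to 50.2%, and shared peaks at 81.1% to 96.6%.

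Where all 3 libraries covered the same bases, 8468 stretches were obtained with a median length of 289 bases. Summits of the peaks behind them lay a median of 199 bases apart in replicates 1 and 2, 198 in replicates 1 and 3 and 186 in replicates 2 and 3. Between 32.2% and 33.0% of summit pairs were within 100 bases. Fold enrichment went together only loosely across stretches. In the same order of pairs, Spearman's rho was 0.26, 0.29 and 0.30, and Pearson's r on log2 values was 0.30, 0.32 and 0.35. These are correlations across 8468 stretches of the same libraries, which are not independent replicates. Of the stretches, 949 (11.2%) had all 3 of their peaks outside H3K4me3. Those lay a median of 28356 bases from a gene end, and 34.2% were beyond 50 kb. Stretches over the mark, meaning that at least 1 of their peaks overlapped it, lay a median of 361 bases away. Both kinds met the PRDM proteins at like shares. Peaks of both PRDM16 libraries overlapped 81.7% of the stretches outside the mark and 80.9% of those over it, and PRDM3 overlapped 73.2% and 78.0%.

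A peak was linked to the protein-coding gene with the nearest end, if within 50 kb of its midpoint. Each peak thus had 1 linked gene at most. A gene without a linked shared peak can still lie near one that was linked to a neighbour. Of 20665 genes, 7009 (33.9%) were linked to a shared peak of at least 1 library, and 5615 in the peaks of all 3. The nearest end lay within 1 kb of a shared peak for 5704 genes (27.6%). A peak found in at least 2 libraries was linked to 11168 genes (54%). A peak of any class was linked to 18863 genes (91.3%), and 7695 genes had single peaks only. Linking to genes made the libraries look more alike than their peaks did. Replicates 1, 2 and 3 were linked to 14387 (69.6%), 14999 (72.6%) and 16216 genes (78.5%), of which 11024 were common to all. These are 76.6%, 73.5% and 68.0% of each library's genes. For 1702 of the 11024, no linked peak overlapped a peak of another library. Only 560 genes (2.71%) were linked to a stretch covered in all 3 libraries outside H3K4me3. With 1 library left out and both others required, this count was 1113 (without replicate 1), 2172 (without replicate 2) and 1891 (without replicate 3).

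The highest ranked shared peaks genome-wide lay close to gene ends. By mean rank over the libraries, 7 of the leading genes were Zranb3, Zfp97, Kifc2, Ing5, Polr3g, Tom1 and Leng8. All 7 stretches overlapped both PRDM16 libraries and PRDM3, and lay 11 to 234 bases from a gene end. For each, at least 1 of the NKX2-1 peaks behind it overlapped H3K4me3. At Zranb3, a helicase-like protein of stalled replication forks, fold enrichment was 28.8 in replicate 1, 13.0 in replicate 2 and 16.0 in replicate 3. At Zfp97, a zinc-finger gene, the values were 29.2, 12.4 and 12.0, and at Tom1, an endosomal sorting protein, 22.3, 14.6 and 9.59. Replicate 1 was highest at each of the 7, and its scale differs from the other libraries.

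In the full lists of peaks, genes of the 5 alveolar and epithelial lists were linked to shared peaks at shares above the 33.9% of all genes. The lists held 118 genes on chromosomes 1 to 19, of which 80 (67.8%) were linked to a shared peak. By list these were 16 of 24 genes of AT1 cells and 11 of 22 of AT2 cells. They were also 24 of 31 transcription factors of lung epithelium, 17 of 28 genes of surfactant lipid synthesis, and 18 of 20 junction and keratin genes. Some genes stand in more than 1 list. Housekeeping genes had 14 of 20 (70%), a share above that of the 5 lists together. The AT2 share was no longer above that of all genes in stricter settings. It was 4 of 22 (18.2%) against 20.1% of all genes with the 20000 strongest peaks, 2 of 22 (9.09%) against 14.1% at q under 0.05 and 3 of 22 (13.6%) against 14.5% with summit windows. The other 4 lists were above all genes in these 3 settings, and so were housekeeping genes, with 35%, 35% and 15% in the same order. When peaks had to reach a −log10 q of 5, 316 genes in all were linked, among them 0 AT1, 0 AT2, 1 transcription factor, 1 lipid and 0 junction genes. Outside H3K4me3, 0 of 20 housekeeping genes had a stretch covered in all 3 libraries. There, 4 of 24 AT1, 4 of 22 AT2, 4 of 31 transcription factor, 3 of 28 lipid and 5 of 20 junction genes had one, against 2.71% of all genes. In the same order these counts were 7, 4, 6, 6 and 5 without replicate 1. Leaving out replicate 2 gave 10, 8, 11, 9 and 9, and leaving out replicate 3 gave 9, 6, 15, 8 and 6. The housekeeping count was 0 each time, and over all genes the count was 1113, 2172 and 1891 without replicates 1, 2 and 3. At q under 0.05 in all 3 libraries the counts of the 5 lists were 1, 1, 2, 1 and 3, against 107 over all genes. With all 3 libraries required, lists of other cell types lay below all genes. A shared peak was linked to 2 of 16 airway, 3 of 20 mesenchymal, 0 of 18 endothelial, 2 of 20 immune and blood, 0 of 18 liver and 3 of 17 neuron genes, and no stretch outside the mark to any of these 109 genes. Without replicate 1 a shared peak was linked to 1 airway, 3 mesenchymal, 1 endothelial, 1 immune and blood, 1 liver and 4 neuron genes. With replicate 2 left out the counts were 6, 4, 2, 5, 2 and 6, and with replicate 3 left out they were 5, 4, 4, 3, 0 and 4. All these shares lay below those of all genes, which were 33.0%, 46.4% and 41.0% without replicates 1, 2 and 3. Without replicate 2, stretches outside the mark were linked to 4 airway, 2 endothelial, 2 immune and blood, 1 liver and 2 neuron genes. Over all 20665 genes the count was then 2172. In this setting the share of airway genes, from a count of 4, was above that of all genes. The shares of endothelial, immune and blood, and neuron genes, each from a count of 2, lay close to that of all genes.

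**Figure D4:**
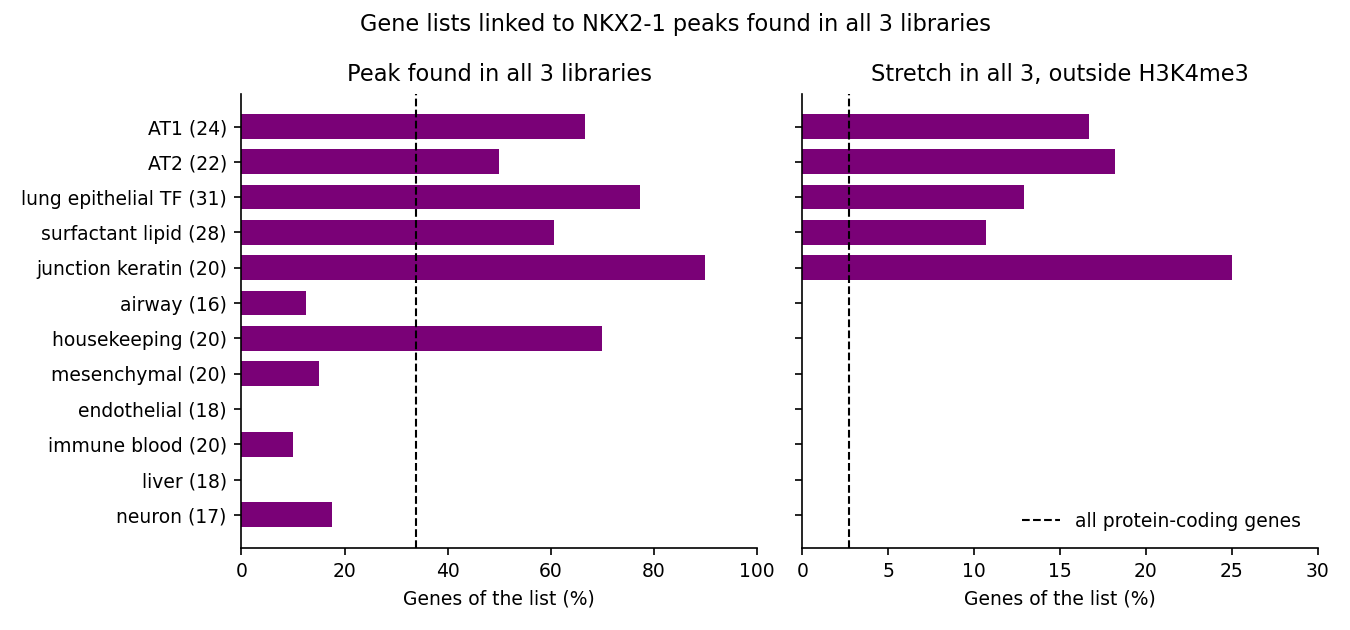
Share of each gene list (x axes, percent) linked to a peak found in all 3 NKX2-1 libraries (left) or to a stretch covered in all 3 with no H3K4me3 peak of any library (right); the number of genes stands beside each list, and the dashed line is the share of all 20665 protein-coding genes (33.9% and 2.71%). The axes differ in range, and the right panel has bars for the 5 alveolar and epithelial lists only.

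AT1 genes had shared peaks at promoters and inside gene bodies. Scnn1g, the gamma subunit of the epithelial sodium channel, had folds of 13.6, 5.10 and 3.83 in replicates 1, 2 and 3, at the promoter printed above with CACTTG. Ahnak, a giant scaffold protein, had 8.42, 4.07 and 7.19. Gprc5a, an orphan receptor of lung epithelium, had 13.4, 5.53 and 3.54, and Limch1, a regulator of actomyosin, had 10.7, 3.64 and 4.71. Replicate 1 was highest at each of these, and replicates 2 and 3 changed places between genes. Outside the mark, Hopx, a homeodomain-only protein of AT1 cells, had 3 stretches, the strongest of them with folds of 8.95, 4.86 and 3.14 at 11608 bases from the gene. Col4a4, a basement membrane collagen chain, had 10.2, 3.24 and 7.06, Emp2 had 7.95, 3.26 and 4.79, and Gramd2 had 7.04, 4.01 and 3.83. Aqp5 and Pdpn, which encode a water channel and podoplanin, had no linked shared peak. Aqp5 had 4, 3 and 1 linked peaks in replicates 1, 2 and 3, and Pdpn had 3, 2 and 1.

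AT2 genes had shared peaks at promoters and away from them. Cxcl15, an epithelial chemokine of lung, had folds of 12.9, 4.07 and 4.00, and Sftpb, surfactant protein B, had 11.5, 4.88 and 3.20, both at the promoters printed above. Lpcat1 makes the saturated phosphatidylcholine of surfactant. Its stretch lay outside H3K4me3, 13515 bases from the gene, with 6.71, 4.07 and 5.59. Etv5, an ETS factor of AT2 cells, had 7.66, 4.07 and 3.20 inside the gene. There all 3 libraries met over a few bases only (chr16:22438182-22438186). A further Etv5 stretch 12559 bases away, outside the mark, had 6.11, 4.07 and 3.20. The highest linked Etv5 peaks of replicates 1 and 3 (9.29 and 4.00) were single. The stretch at Sftpa1, surfactant protein A, was weak, with 3.39, 3.26 and 2.40. Several defining AT2 genes had no linked shared peak, which does not exclude one nearby that was linked to a neighbouring gene. Sftpc, surfactant protein C, had 1 linked peak in replicate 1 (fold 2.72), 0 in replicate 2 and 3 in replicate 3 (highest 4.00). Sftpd had 4, 0 and 2 linked peaks, Lamp3 had 1, 2 and 3, and Lyz2 had 1 peak in all, in replicate 3 (fold 2.40).

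Among transcription factor genes the shared peaks covered most of the list. Grhl2, a grainyhead factor of epithelial junction genes, had folds of 9.36, 5.70 and 9.59 and was the 1 gene of the 26 in the plot of named genes at which replicate 1 was not highest. Tead4, a DNA-binding partner of YAP, had 12.1, 5.83 and 4.24, Foxp4 had 9.51, 4.88 and 5.59, and Nfib, a nuclear factor I protein needed for lung maturation, had 8.56, 4.88 and 7.19. Inside Nfib a further stretch outside the mark had 13.1, 3.26 and 7.19. Irx2 had 7.10, 5.83 and 4.53 outside the mark. Foxa1, Sox2, Elf3, Ehf, Grhl1, Nfia and Nfix were the 7 members without a linked shared peak.

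The Nkx2-1 gene itself was linked to many peaks. Replicate 1 had 12, replicate 2 had 11 and replicate 3 had 11, of which 4, 3 and 3 were shared and 5, 5 and 6 were single. The highest fold was 6.40 in replicate 1, 4.88 in replicate 2 and 5.59 in replicate 3. Within their libraries these peaks had percentile ranks of 83.0, 96.6 and 97.6. The best ranked stretch (chr12:56535350-56536189) lay inside the gene with folds of 5.70, 4.05 and 4.77. A stretch 10565 bases from the nearest end (chr12:56521347-56521394) had 3.54, 4.88 and 5.59, so that replicate 1 was lowest there. The remaining stretch, at 6697 bases, had 2.98, 3.64 and 2.74. For all 3 stretches, at least 1 of the peaks behind them overlapped H3K4me3.

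Lipid genes had their shared peaks mainly at promoters. Chpt1, which makes phosphatidylcholine, had folds of 9.32, 7.45 and 5.47. Acsl1, which activates fatty acids, had 6.76, 6.51 and 6.39, the lowest SD of fold among the 26 named genes (6.56 ± 0.189, SD, n = 3). Fold scales differ between libraries, and the percentile ranks of these Acsl1 peaks were 85.1, 99.1 and 98.7. Srebf1, the sterol and fatty acid regulator, had 8.42, 4.07 and 4.00. Elovl5, a fatty acid elongase, had a stretch outside H3K4me3 with 10.2, 4.07 and 3.20. Scd1, Elovl6, Gpam and Dgat2 were among the 11 members without a linked shared peak. Elovl6 had peaks of up to 14.9 in replicate 1 but 3.26 and 3.20 in the others.

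Junction and keratin genes had a linked shared peak in 18 of 20 cases, the highest share of the 12 lists with all peaks used. The order was not stable. Transcription factors were higher with the 20000 strongest peaks (54.8% against 50.0%) and without replicate 2 (96.8% against 95.0%), and AT1 genes with summit windows (33.3% against 30.0%). Esrp1, an epithelial splicing regulator, had folds of 18.4, 5.70 and 4.79. Cldn7, a tight junction claudin, had 10.2, 4.88 and 5.29 at the promoter printed above. Cldn18, the claudin with a lung isoform, had 8.61, 4.88 and 6.36 outside H3K4me3, 5194 bases from the gene. Cdh1, which encodes E-cadherin, had 8.45, 6.51 and 4.79 inside the gene and outside the mark, 22901 bases from its nearest end. Krt18 had 9.36, 4.07 and 4.00 and St14, a membrane protease, had 8.82, 3.26 and 3.20, both outside the mark. Tjp1 and Dsp were the 2 members without a linked shared peak. A window before a RefSeq start of Tjp1 was overlapped by peaks of all 3 libraries (folds 8.09, 4.88 and 4.24), but no shared peak had an end of Tjp1 as its nearest. Over all 5 lists, 20 stretches outside H3K4me3 were linked to 18 genes. Peaks of both PRDM16 libraries overlapped 18 of the 20, and PRDM3 peaks overlapped 19. Replicate 1 had the highest fold at 17 of them.

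**Figure D5:**
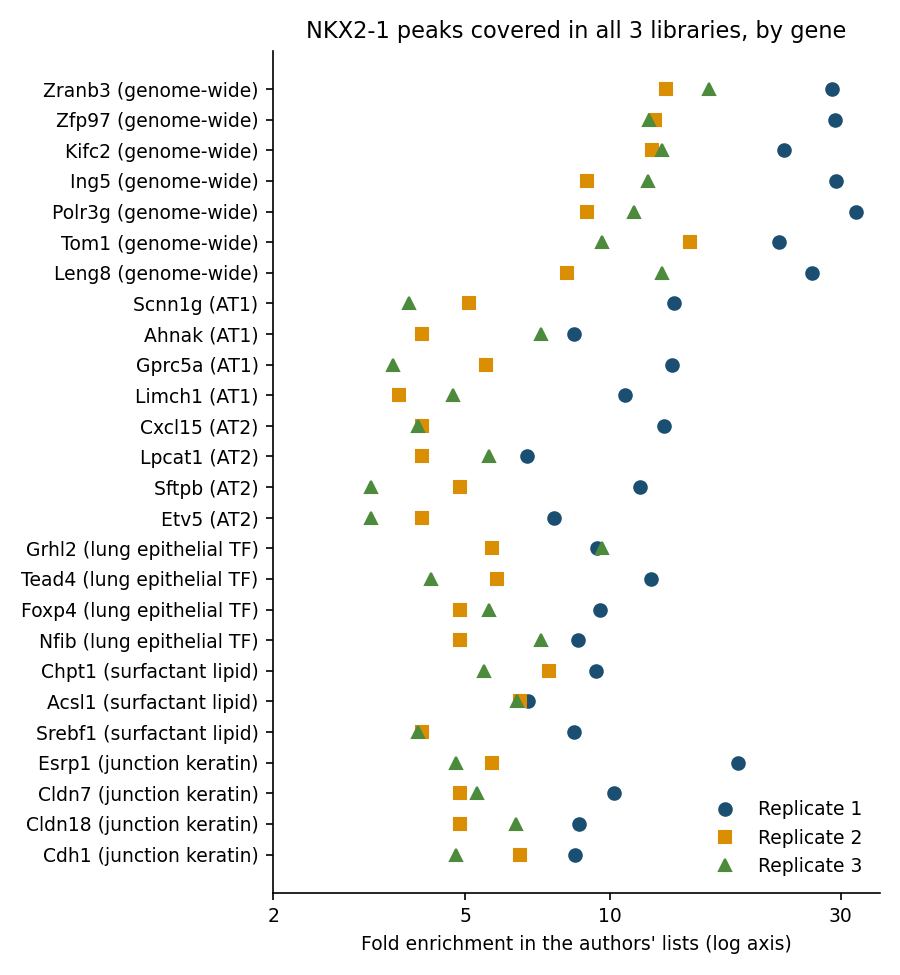
Fold enrichment in each NKX2-1 library (x axis, log scale, 1 symbol for each library) at the best ranked stretch covered in all 3 libraries for 7 of the genes ranked highest genome-wide and up to 4 genes of each alveolar and epithelial list (y axis). Replicate 1 lies highest at 25 of the 26 genes, Grhl2 being the exception, and replicate 2 lies above replicate 3 at 13.

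Single peaks differed in kind between libraries at their strong end. The 4 highest ranked single peaks of replicate 1 lay at Usp10, Ercc6, Plcl1 and Ddx11, with folds of 16.1, 14.9, 14.2 and 14.2. All 4 overlapped H3K4me3, and they stood 360th to 586th in that library. In replicate 3 the strongest peak of the whole list was single (fold 20.5, chr8:31420270-31420667, 155184 bases from its nearest gene, Fut10). A further single peak near Irgm2, an interferon-induced GTPase, stood 3rd with 18.4, and others near Gm36722 (16.2) and Dgki (16.1, beyond the linking distance) stood 8th and 9th. All 4 lay outside H3K4me3. In replicate 2 the strongest single peak, near Kif6, had a fold of 8.59 and stood 111th, and further ones lay near Dync1i1 (5.83, beyond the linking distance) and Gm51415 (5.70), all outside the mark. Among regions of replicates 2 and 3 that replicate 1 lacked, the best ranked was near Zfand6 (5.10 and 4.95, unlinked), followed by Zfp106 (4.88 and 5.59), one near Galc (5.29 and 4.65, unlinked) and Eme2 (4.88 and 4.79). Zfp106 and Eme2 peaks lay 276 and 20 bases from a gene end and over H3K4me3.

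Promoter sequence was described over 31396 RefSeq start windows of 250 bases, on the 18 chromosomes for which the table had them. The number of NKX2-1 libraries with a peak over the window went with its CpG content. The median window held 3 CpG pairs where no library had a peak (18084 windows), 12 with 1 library, 18 with 2 and 20 with 3 (4416 windows). CACTNNAG stood in 13.0% of all windows and in 11.1% of those with peaks of all 3 libraries, and CAAGTG in 11.5% and 7.88%. Neither motif was thus more common there, over all windows. Outside H3K4me3 the order was the other way. CACTNNAG stood in 14.3% of windows with no library, 16.1% with 1, 22.5% with 2 (32 of 142) and 33.3% with 3 (5 of 15). CAAGTG stood in 13.5%, 16.7%, 21.8% and 26.7%. The last class holds 15 windows, so its share is imprecise, and no test was made. CACTTGAG holds both motifs. In the windows printed above, Zfp97, Tom1 and Cxcl15 hold CACTNNAG, Scnn1g holds CAAGTG and Cldn7 holds both.

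Close to the limit of the rule, 1158, 1032 and 1200 peaks of replicates 1, 2 and 3 met another library by 100 bases or less (6.23%, 6.77% and 6.79% of peaks found in more than 1 library). A further 1023, 797 and 1008 single peaks lay within 100 bases of a peak of another library (3.10%, 1.76% and 1.73% of single peaks). Most overlaps were longer, with medians of 372, 326 and 343 bases.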

How the data were processed

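Peak lists of 9 of 12 samples were used, 1 list per sample. Per the submitters' processing notes, the authors used Trimmomatic, Bowtie2, MACS2 and HOMER with mm10. Versions, settings and any control library are not given in the sources used here. Read depth per library is unknown. The deposited fold enrichment (a ratio) and the deposited −log10 p and q values are the authors', and the deposited score is 10 times one of the latter. From the values, the NKX2-1 lists reach down to a p of about 0.01. Fold enrichment was used within lists only, apart from means over libraries for named genes.

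Distances run from peak midpoints to the nearest end of a protein-coding RefSeq gene (GRCm38.p6); that table gives no strand. Ranks average ties. The library was the unit of every test (exact permutation or sign-flip, two-sided), with adjustment over 5 tests. Shared peaks cover overlapping regions in every library by the class rule, so their positions and overlaps are not independent between libraries. For CACTNNAG and CAAGTG, both strands of RefSeq promoter windows were searched; no genome was used, so peaks outside those windows have no sequence here. Members and gene lists were chosen with earlier results of these data known, and list counts are descriptions. The named genes are Nkx2-1, up to 4 best ranked members of each of 5 lists, the 8 best genome-wide and those of the 4 best peaks of each single or pair class; other genes were named after their values were seen, and some that the rule names are not reported here. Of 250 genes in 12 lists, S100g, Egfl6 and Syn1 are not on chromosomes 1 to 19. Classing was tested on simulated peaks, and the nearest gene end was checked by a direct search for a sample of replicate 1 peaks. Alternatives changed the overlap, the peaks used, the links, the chromosomes and the libraries. Python 3.11.15, numpy 2.4.6, pandas 2.3.3 and matplotlib 3.10.9 were used.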

Additional observations from a re-analysis of the deposited data

How the results depend on the processing

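The shared class was 13.4% of a library on average. It was 23.9% ± 20.9 at a −log10 q from 5 up and 26.7% ± 18.2 at q under 0.05 (SD, n = 3). It was 21.6% with the 20000 strongest peaks, 4.52% with summit windows, 2.39% with only peaks outside H3K4me3 and 50.8% with only those over it. The first 2 means hide unlike libraries. At a −log10 q from 5 up, replicates 1, 2 and 3 held 12708, 661 and 1170 peaks. Of these, 10.9%, 95.6% and 90.7% were found in another library. Without 1 library, when shared means both that remain, the shared class was 14.3% to 24.8%. Genes linked to a shared peak numbered 7009, but 316, 2912, 4148, 2992 and 797 under the first 5 of these settings, in that order. Genes linked to a stretch outside H3K4me3 numbered 560, but 6, 107, 181 and 254 under the first 4, 229 with links within 10 kb, and 1113 to 2172 without 1 library. The share found in another library was 11.8 percentage points higher in replicate 1 than the mean of replicates 2 and 3, but −82.3 at a −log10 q from 5 up, −51.3 at q under 0.05 and −22.2 over H3K4me3; the cause was not tested. The difference at gene ends, 56.0 percentage points, was −0.717 outside H3K4me3. Summit windows, the splits by H3K4me3 and RefSeq starts (on 18 chromosomes) were chosen after seeing the data. Over all 100 alternatives for the comparisons, 83 kept direction and side of the threshold or stayed near the reported value, 13 moved and 4 reversed. With at most 3 libraries per target no test could give a p under 0.05, so for the tests only the direction could change. For them the count of 83 does not measure how stable the size of a difference was. Some of the 83 shrank, as the differences at a −log10 q from 5 up show. Of 350 for gene lists, 106 moved. Both tallies include alternatives that could not change a value. Merging touching intervals within a list left every value as it was. The 50% overlap rule does not enter the stretches outside H3K4me3, and ranking by −log10 p cannot change a count of genes. The tallies therefore overstate stability. Pairing H3K4me3 and NKX2-1 libraries by number (replicate block) left the difference at −72.3 points, with an exact sign-flip permutation p of 0.25, the smallest that 3 pairs allow; the numbers pair libraries only in name. Unknown depth, tied fold values and 3 libraries limit every comparison here.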

Other observations

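Away from promoters, the strongest stretches covered in all 3 NKX2-1 libraries with no H3K4me3 peak were chosen after their values were seen. The first was 9247 bases from Rasgrf1, a Ras guanine nucleotide exchange factor, with folds of 18.4, 5.10 and 7.55 in replicates 1, 2 and 3. The next lay inside Dpyd, a pyrimidine-degrading enzyme, 307632 bases from its nearest end, with 12.3, 8.14 and 5.59. A stretch 276728 bases from Fat1, an atypical cadherin, had 15.4, 4.88 and 6.39, and one 80394 bases from Reep3 had 10.5, 6.51 and 6.39. The last 3 were beyond the linking distance and so entered no gene count. All 4 overlapped both PRDM16 libraries and PRDM3.

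The peak with the highest −log10 p was the same place in all 3 libraries and had a low fold. It lay on chromosome 2 (chr2:98666853-98667201 in replicate 1), 1035355 bases from the nearest gene, Lrrc4c, with a −log10 p of 183, 2811 and 2544 and a fold of 1.18, 2.04 and 1.93. By fold it ranked near the bottom of each list. It counted as a shared peak, since no regions of extreme signal were removed from the lists here. Whether such places reflect NKX2-1 was not tested. Ranking by −log10 p in place of fold left the difference between shared and single peaks at 51.7 ± 2.67 points (SD, n = 3).

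Peaks on chromosomes X and Y, which the classes left out, were 2.08% of replicate 1, 3.98% of replicate 2 and 4.25% of replicate 3.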
